A study of Mus musculus with 7 samples.

Results

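Gene-end regions are accessible regions of mouse liver chromatin that come within 500 bp of the 3′ end of a protein-coding gene and lie more than 2000 bp from any annotated transcription start site (TSS). In GENCODE M21, on GRCm38, 997 of the 55680 regions with deposited counts met this rule, which uses position only. They lay at the ends of 1043 of 21951 protein-coding genes, and 67 regions served more than 1 named gene. Accessibility had been measured by ATAC-seq, in which a transposase inserts adapters into exposed DNA, on nuclei isolated from liver tissue of male C57BL/6N mice, for which the labels name no treatment or altered gene. There were 3 young samples (age 3 months) and 4 aged samples (age 18 months). The aged samples came from 3 animals, because separate lobules of 1 liver were counted as 2 samples, and the labels do not say which. The p-values below therefore measure the spread between samples, part of which may lie within an animal.

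At the end of a protein-coding gene, RNA polymerase II transcribes a polyadenylation signal, usually the hexamer AAUAAA in the RNA, and the transcript is cut shortly after it and given a poly(A) tail. The polymerase runs on past the cut before it is released, while the remaining RNA is degraded behind it. Accessible DNA near a gene end can belong to this transcribed chromatin, to an enhancer of the gene or of a neighbour, or to a binding site of a factor such as CTCF, and ATAC-seq alone does not tell these apart.

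The annotated ends of some genes whose regions were named for a large change, for a call in a gene list or for their strength are shown so that the signal each gene ends on can be read. Each line gives the last 30 bases of the gene on its own strand in GRCm38, 5′ to 3′, with the hexamer in capitals, which is AATAAA in all but Gpcpd1, where its variant stands. Tent5a, Gpcpd1, Hap1, Isl2, Creb3l3 and Cyp2d10 had regions with lower counts in aged liver, Cldn18, G6pc2 and Slc11a2 had regions with higher counts, and Lars2, Pck1, Tat and Fgb had strong regions that did not pass the test. The last pair, Mup15 and Mup17, shows how alike the ends of duplicated genes are.
Tent5a, chr9:85320439-85320468, minus strand: aAATAAAaagaagttatttttttctattga
Gpcpd1, chr2:132529082-132529111, minus strand: ctaagtggtATTAAAgtcatgcgccaccac
Hap1, chr11:100347327-100347356, minus strand: atgtgggaAATAAAgaacttgtgagatatc
Isl2, chr9:55546151-55546180, plus strand: ttgatcttAATAAAacacaacccgatgcca
Creb3l3, chr10:81084324-81084353, minus strand: ccttcAATAAAgtattttgacaaaactggg
Cyp2d10, chr15:82402846-82402875, minus strand: ccatgcaaAATAAAccaatcttgtggctgc
Cldn18, chr9:99689461-99689490, minus strand: gattaaAATAAAacaattgaaattcttaaa
G6pc2, chr2:69227812-69227841, plus strand: gtatatatttcAATAAAcgctgctgaaaac
Slc11a2, chr15:100387898-100387927, minus strand: tatAATAAAgttcatgcttaatagctaaaa
Lars2, chr9:123462637-123462666, plus strand: cattgaattAATAAAtgttgtgaaccataa
Pck1, chr2:173159244-173159273, plus strand: tacaaAATAAActtttatagaaaaagtaga
Tat, chr8:109999774-109999803, plus strand: ttttttttaAATAAAattttatcaagtatg
Fgb, chr3:83040141-83040170, minus strand: aatgAATAAActcaaagaattgccaatgcc
Mup15, chr4:61435790-61435819, minus strand: ctgttcAATAAAtgattacccttgcactta
Mup17, chr4:61591929-61591958, minus strand: gttcAATAAAtgattacccttgcacttaaa

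Genes with and without an accessible end carried these signals at like shares. AATAAA occurred in the last 50 bases of 61.4% of the genes with a gene-end region (640 of 1043) and of 61.0% of the genes that end over 2000 bp from a TSS without such a region (9125 of 14970). With ATTAAA, the most common variant, counted as well, the shares were 75.5% and 74.3%.

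The counts in regions summed to between 5709327 and 25461110 in young and between 4474652 and 11717992 in aged libraries. A gene-end region held a median of 63 to 272 counts in young and of 37 to 98 counts in aged libraries. As a check of the tissue, the promoters of the hepatocyte genes Alb, Apoa1, Ahsg, Fgb and Hnf4a lay at percentiles of 96.7 or more of all regions, while those of Epcam (bile duct), Lrat (stellate cells) and Clec4f (Kupffer cells) lay at percentiles of 16.3 or less. Cd3e (T cells) had no promoter region.

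Gene ends were more often less than more accessible in aged liver. Of the 997 gene-end regions, 86 (8.63%) had lower and 15 (1.5%) had higher counts at an adjusted p under 0.05 (edgeR's quasi-likelihood test, Benjamini-Hochberg adjustment over all regions). Across all 55680 regions the same test called 3.30% lower and 2.44% higher, or 5.74% in either direction. The median log2 fold change, aged over young, was −0.22 at gene ends and −0.035 over all regions, and 686 gene-end regions (68.8%) had a value below 0. Every aged sample was below every young sample at 233 gene-end regions (23.4%), against 11.6% of all regions, and every aged sample was above every young sample at 47 (4.71%), against 10.2%. The median at gene ends was below 0 on each of the 20 chromosomes that hold such regions. The number of calls depended on single libraries. It was 8 lower and 0 higher without young replicate 1, 16 and 2 without young replicate 2, 13 and 2 without aged replicate 1, 28 and 3 without aged replicate 3, and 104 and 25 without aged replicate 4. Over all regions the share called lower in these fits was 0.24%, 0.45%, 0.49%, 0.85% and 4.67%. At gene ends it was 0.80%, 1.60%, 1.30%, 2.81% and 10.4%.

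The gene-end regions made up a smaller part of the counts in each aged library. They took 1.95%, 2.04% and 2.10% of the counts in young replicates 1 to 3 and 1.82%, 1.80%, 1.88% and 1.86% in aged replicates 1 to 4, so the ages did not overlap. This corresponds to 2.03% ± 0.073 (SD, n = 3) for young and 1.84% ± 0.037 (SD, n = 4) for aged samples. Because these are bulk samples, a smaller number of cells in which a gene end is open and a lower accessibility per cell cannot be told apart.

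Gene ends were next compared with regions of similar strength, since weak regions lost and strong regions gained accessibility in these libraries. All regions were split into 10 classes (deciles) of their mean log2 CPM (CPM, counts scaled to the TMM-normalized library size). Gene-end regions had a lower median log2 fold change than the 33875 other regions over 2000 bp from any TSS in 10 of 10 deciles, by between 0.084 and 0.32. In the weakest decile the medians were −0.71 at gene ends and −0.40 at the others, and in the strongest they were 0.19 and 0.28. Of the 299 gene-end regions in the 3 strongest deciles, 10 were called higher (3.34%) and 14 lower (4.68%), against 6.81% and 0.94% of the other distal regions there. Of the 252 in the 3 weakest deciles 1 was called higher (0.397%) and 31 lower (12.3%), against 0.36% and 5.88%.

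**Figure D1:**
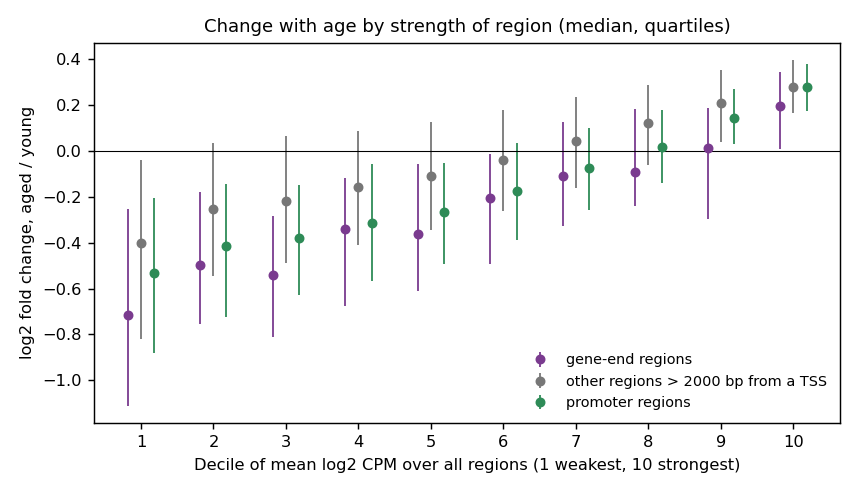
Median log2 fold change (aged over young, y axis, with quartiles as lines) by decile of mean log2 CPM (x axis, 1 weakest, 10 strongest) for gene-end regions, other regions over 2000 bp from any TSS and promoter regions. The gene-end median lies below that of the other regions in 10 of 10 deciles, and all 3 kinds of region rise from the weakest to the strongest decile.

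To see this within single libraries, the mean log2 CPM of the other regions of the same decile was subtracted from that of each gene-end region. The mean difference was 0.18, 0.15 and 0.14 in young replicates 1 to 3. In aged replicates 1 to 4 it was −0.030, −0.057, −0.021 and −0.078. All 4 aged libraries thus lay below every young library, at −0.046 ± 0.026 (SD, n = 4) against 0.16 ± 0.024 (SD, n = 3), a change of −0.20.

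How far gene ends stood apart depended on the regions they were set against. Against other distal regions that overlap an annotated exon, a comparison chosen after the values were seen, the level within libraries changed by −0.13, from 0.10 ± 0.022 (SD, n = 3) to −0.023 ± 0.021 (SD, n = 4), and the ages still did not overlap. Exons were common at gene ends, where 66.8% of the regions touched an exon, compared with 9.62% of the other distal regions. Against promoter regions of the same decile, also chosen afterwards, the values were 0.057 ± 0.037 (SD, n = 3) and −0.039 ± 0.073 (SD, n = 4). There, aged replicate 2 at 0.026 lay above young replicate 1 at 0.019, so the ages overlapped. The gene-end median was nevertheless below the promoter median in 10 of 10 deciles, and the promoter median was itself below that of the other distal regions in 10 of 10.

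**Figure D2:**
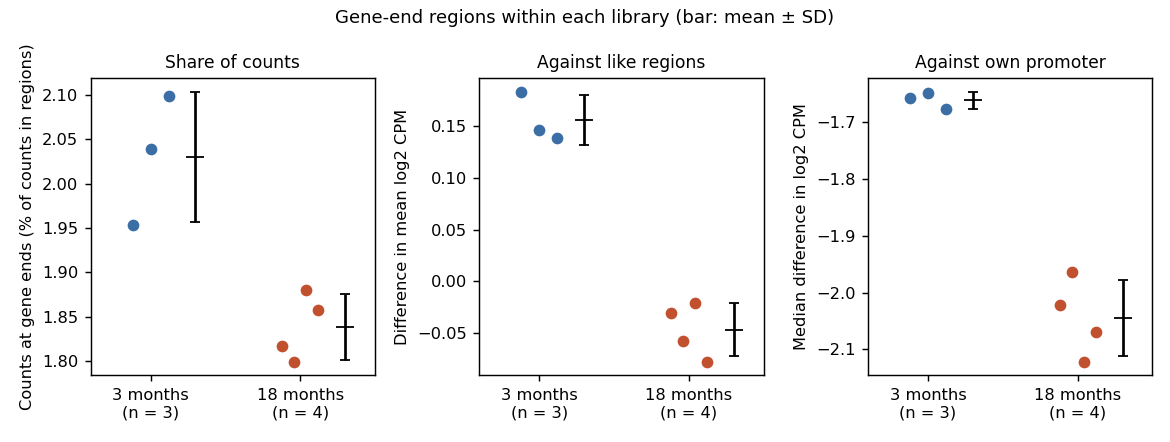
Values of each library (points) with the mean ± SD of each age (black) for the share of counts at gene ends (left, percent), the level of gene-end regions against other distal regions of the same decile (middle, difference in mean log2 CPM) and the level of the end against the promoter of the same gene (right, median difference in log2 CPM). In each panel the 4 aged libraries lie below the 3 young ones.

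Ends and promoters of the same genes had medians on opposite sides of 0. Of the genes with a gene-end region, 863 also had a region within 200 bp of a TSS. Some had more than 1 gene-end region, which gave 883 pairs of an end and a promoter, with 835 end and 855 promoter regions among them. Their median log2 fold change was −0.22 at the end and 0.18 at the promoter. The end had a lower log2 fold change than the promoter in 681 pairs (77.1%), and the value was below 0 at the end in 608 pairs (68.9%) but at the promoter in 217 (24.6%). By the same edgeR test, 79 of these pairs, from 78 genes and 72 gene-end regions, had an end called lower. Of these, 5 had a promoter called lower, 3 a promoter called higher and the rest a promoter that passed neither way. Of all 883 pairs, 66 (7.47%) had a promoter called higher and 11 (1.25%) one called lower.

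Within libraries, the median log2 CPM of the end relative to the promoter was −1.66, −1.65 and −1.68 in young replicates 1 to 3 and −2.02, −1.96, −2.12 and −2.07 in aged replicates 1 to 4. Ends were thus weaker than promoters in every library, and more so in the aged ones, by −0.38. Strength moves with this result, as promoters are stronger than ends and strong regions gained. With offsets fitted on mean abundance the change was −0.15. The end had the higher mean level in 125 pairs.

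The 3 genes with opposite calls were Fgf1 (a fibroblast growth factor), Mef2b (a MADS-box transcription factor) and Opn3 (an opsin), named here by this pattern after their values were seen. Their log2 fold changes were −1.26 at the end and 0.50 at the promoter for Fgf1, −1.02 and 0.57 for Mef2b, and −0.87 and 0.54 for Opn3. At the Mef2b promoter the ages overlapped, with 5.65 log2 CPM in young replicate 1 and 5.64 in aged replicate 2. The reverse, an end called higher with a promoter called lower, occurred in 0 genes. The only gene with both called higher was Serpina3k, with 2.05 at the end and 0.86 at the promoter. Across the 883 pairs, which share genes, regions and libraries and are not independent replicates, the changes at end and promoter had a Pearson correlation of 0.24.

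**Figure D3:**
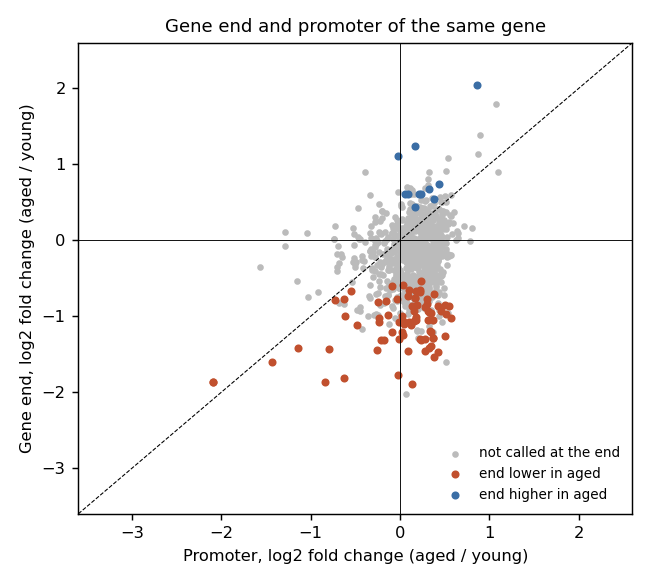
Log2 fold change (aged over young) at the promoter (x axis) and at the end (y axis) for 883 pairs of a gene end and its promoter, each a point, with ends called lower or higher by edgeR in colour and the line of equal change dashed. Most points lie below the dashed line, with 77.1% of pairs lower at the end than at the promoter.

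Gene-end regions had medians below 0 on each side of the end. They fell upstream of the end, inside the gene (236), across the end (403) or downstream of it (358), and their median log2 fold changes were −0.26, −0.13 and −0.28. The regions across the end were also the strongest, with a median of 3.71 log2 CPM against 2.77 upstream and 3.04 downstream. At 520 regions the next gene ran towards the end (convergent, median −0.23), and at 476 it ran the same way (tandem, −0.21).

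By annotation, 272 gene-end regions overlapped coding sequence, 384 overlapped a 3′ UTR without coding sequence, 32 lay in an intron of some gene and 299 lay between genes. Their medians were −0.20, −0.18, −0.24 and −0.29. The remaining 10 overlapped other exons and had a median of −0.38. Among the other distal regions, the 12973 intergenic ones had a median of −0.070 and the 705 over other exons one of −0.055. The 2215 over coding sequence had a median of −0.13 and the 17643 in introns one of −0.088. The 339 other distal regions in 3′ UTRs, which belong to other transcripts or lie further from the end, had a median of −0.23, close to that of gene ends. In each of 5 classes of GC content the gene-end median was below that of the other distal regions. The medians were −0.11 and 0.047 in the class of lowest GC and −0.25 and −0.20 in that of highest GC.

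Genes with liver functions often had an accessible end. Of the 15999 protein-coding genes that end over 2000 bp from any TSS, 1029 (6.43%) had a gene-end region. The share was 2.84% for genes without a promoter region and rose over 4 equal classes of promoter level from 4.94% through 6.80% and 9.88% to 13.6%. It was 49.4% for plasma proteins (40 of 81), 32.8% for hepatocyte metabolic enzymes (38 of 116) and 20.8% for both liver transcription factors (15 of 72) and circadian clock genes (5 of 24). For markers of other liver cells it was 15.8% in macrophages (3 of 19), 14.3% in cholangiocytes (2 of 14) and 10.5% in endothelial cells (2 of 19), and no stellate cell (0 of 17) or lymphocyte marker (0 of 17) had such a region.

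**Figure D4:**
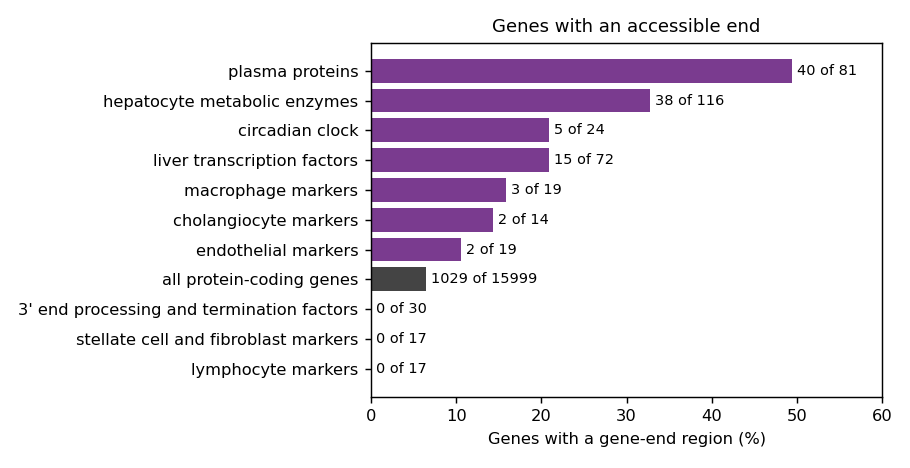
Share of genes that end over 2000 bp from any TSS and have a gene-end region (x axis, percent), for each gene list and for all protein-coding genes (dark bar), with the counts printed beside each bar. Plasma proteins reach 49.4% and metabolic enzymes 32.8%, compared with 6.43% over all genes.

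The genes of the machinery that makes RNA 3′ ends, among them the cleavage and polyadenylation factors and the nuclease Xrn2, had no gene-end region (0 of 30). Over their 40 promoter regions the median change was 0.17 on the log2 scale, and 2 were called higher and 0 lower. Over all 15422 promoter regions 4.48% were called higher and 2.06% lower.

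Plasma proteins are the main secreted products of hepatocytes. Of their 41 gene-end regions, 1 was called higher and 1 lower (2.44% each), and the median log2 fold change was −0.17 with 28 below 0 (68.3%). Over all gene-end regions 1.5% were called higher and 8.63% lower, with a median of −0.22 and 68.8% below 0. Of the 102 promoter regions of plasma proteins, 17 were called higher and 0 lower, with a median of 0.27. Their median level was 5.83 log2 CPM, in the strongest decile, where all promoter regions had a median of 0.28. The fibrinogen genes had values of 1.14 (Fga), 1.08 (Fgb) and 1.38 (Fgg) at their ends with adjusted p from 0.053 to 0.17 (edgeR), so that none passed. Fgb lay near the threshold and passed with limma voom (adjusted p = 0.033), with GC offsets (0.036), without young replicate 3 or aged replicate 2, and under 4 of the 6 sums of a pair of aged samples. Ends of other plasma proteins had values on the other side of 0, such as Alb (albumin) with −0.50, Hp (haptoglobin) with −0.69 and Gc (vitamin D binding protein) with −0.73, and these did not pass either.

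At Serpina3k, a serine protease inhibitor gene on chromosome 12, the gene-end region (104343540 to 104348529) had 4.67, 6.34 and 6.71 log2 CPM in young replicates 1 to 3 and 8.65, 6.45, 8.10 and 8.60 in aged replicates 1 to 4. Aged replicate 2 lay below young replicate 3, so the ages overlapped. The log2 change was 2.05 (standard error 0.47, adjusted p = 0.025), and with offsets fitted on mean abundance it was 1.56 and did not pass. The region also overlaps the neighbouring gene Serpina3m.

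At Serpina1a, an alpha-1 antitrypsin gene of the same cluster, the levels were 5.89, 5.47 and 5.98 log2 CPM in young and 5.14, 4.87, 5.18 and 5.03 in aged replicates. Every aged sample lay below every young one, by −0.73 on the log2 scale (adjusted p = 0.014). This region has near-identical copies at 2 other places in GRCm38, so reads may be split between the Serpina1 genes. The ends of Serpina1b, Serpina1d and Serpina1e had values of −0.61, −0.50 and −0.84 and did not pass.

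Among hepatocyte metabolic enzymes, 4 of 40 gene-end regions (10%) were called lower and 0 higher, with a median of −0.17 and 24 below 0. This is near the 8.63% called lower and the median of −0.22 over all gene-end regions. Of the 142 promoter regions of these enzymes 1 was called lower and 20 higher (median 0.29). Their median level was 5.81 log2 CPM, in the strongest decile, where all promoter regions had a median of 0.28. Behind Cyp1a2, a cytochrome P450 that oxidises drugs and caffeine, the level fell from 3.75, 2.39 and 2.49 log2 CPM in young to 1.78, 1.46, 2.14 and 1.58 in aged replicates. All aged samples were lower, but young replicate 1 stood above the other young ones. The log2 change was −1.32 (standard error 0.35, adjusted p = 0.043), and the call was lost with limma voom, where the value was −1.07, and with abundance offsets, where it was −1.10. It was also lost with the filter of 10 counts, under 5 of the 6 sums of a pair of aged samples and without any 1 library other than young replicate 3. Without young replicate 1 the value was −0.71 (adjusted p = 0.249, edgeR).

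A region by the facing ends of Kmo, which hydroxylates kynurenine in tryptophan breakdown, and Opn3 lies inside Opn3, over coding sequence. It starts past the end of Kmo and covers neither end. Its level was 5.32, 5.70 and 5.54 log2 CPM in young and 4.06, 4.35, 4.76 and 5.25 in aged liver. The ages did not overlap, but aged replicate 4 came close to the young samples. The change was −0.87 (adjusted p = 0.035). The call was lost with aged 1 and 2, 1 and 3 or 2 and 3 summed (adjusted p from 0.065 to 0.074), and without any 1 library other than aged replicate 4. Behind Cyp2d10, another drug-oxidising P450, the level was 5.44, 5.62 and 5.71 in young and 4.85, 5.01, 5.18 and 5.01 in aged liver, a change of −0.59 (adjusted p = 0.018). Behind Ephx2, the soluble epoxide hydrolase, it was 4.97, 4.94 and 4.53 in young and 4.45, 4.25, 4.34 and 4.15 in aged liver, a change of −0.54 (adjusted p = 0.049). In both regions every aged sample was below every young sample, by a small margin at Ephx2, whose call was also lost with abundance offsets, GC offsets, the filter of 10 counts and the replicate block. The Ephx2 call was also lost under each of the 6 sums of a pair of aged samples (adjusted p from 0.051 to 0.092) and without any 1 library other than young replicate 3. Scd1, the desaturase that makes oleate, had the largest value of this list above 0, 1.79, and did not pass (adjusted p = 0.082).

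Of the 15 gene-end regions of liver transcription factors, 1 was called higher and 1 lower (6.67% each, median −0.28), against 1.5% and 8.63% of all gene-end regions. The lower one, 2505 bp long on chromosome 10 (81081949 to 81084453), covers the facing ends of Creb3l3, a membrane-bound factor that controls liver lipid genes, and Thop1, a peptidase. It had 6.01, 5.87 and 6.45 log2 CPM in young and 4.81, 4.95, 5.73 and 4.72 in aged replicates, or 69.9 ± 15.2 CPM (SD, n = 3) against 34.4 ± 12.4 CPM (SD, n = 4). No samples overlapped between the ages, and the log2 fold change was −1.04 (standard error 0.21, adjusted p = 0.016). The promoters of Creb3l3 and Thop1 had log2 fold changes of 0.17 and 0.37.

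The higher one lies at the end of Hhex, a homeobox factor needed for liver development, with 5.90, 5.99 and 5.64 log2 CPM in young and 6.93, 6.15, 6.58 and 6.31 in aged replicates. Every aged sample was higher, and the change was 0.67 (adjusted p = 0.034). It was 0.39 with abundance offsets and 0.55 with total counts and did not pass under either, nor with the filter of 10 counts or in 5 of the 7 fits that left out 1 library. Other liver factors passed neither way, among them Cebpa (0.23), Rxra (−0.29), Foxa3 (−0.28) and the 2 regions at Hnf4a (−0.17 and −0.82).

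Of the 5 gene-end regions of circadian clock genes, 1 was called lower, against 8.63% of all gene-end regions, and 5 are too few to compare shares. The called region lies behind Nr1d1, which encodes the clock repressor REV-ERB alpha. The region is 1468 bp long on chromosome 11 (98766091 to 98767558), with its centre 1108 bp past the end of Nr1d1 and inside an intron of the facing gene Thra, a thyroid hormone receptor. It had 5.60, 5.67 and 4.87 log2 CPM in young and 3.63, 4.52, 4.47 and 3.04 in aged replicates, or 42.7 ± 11.8 CPM (SD, n = 3) and 16.2 ± 7.27 CPM (SD, n = 4). The ages did not overlap, and the log2 fold change was −1.46 (standard error 0.28, adjusted p = 0.015). The Nr1d1 promoter had a value of 0.43 (adjusted p = 0.075), with every aged sample above every young one. Bhlhe40, Bhlhe41, Noct and Per1 had values between −0.14 and 0.28 at their ends and did not pass.

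Markers of the other liver cells had few gene-end regions and 0 calls by edgeR at the adjusted p. At an unadjusted p under 0.05, 1 region of the 3 for macrophages passed and 0 for endothelial cells or cholangiocytes. That region lies at the facing ends of Csf1r, the receptor that macrophages need to survive, and Hmgxb3, and had a log2 change of −0.90 (adjusted p = 0.099). It is named here after its value was seen. The regions of Spi1 and Mpeg1 (macrophages) had log2 fold changes of −0.077 and −0.18, those of Flt4 and Dnase1l3 (endothelium) −0.39 and −0.32, and those of Sox9 and Pkhd1 (bile ducts) −0.53 and 0.20. The summed promoter level of the macrophage markers, from 5 of 20 genes, was 37.7 to 51.1 CPM in young and 28.0 to 38.1 CPM in aged libraries. The changes at these 5 promoters had a median of −0.66, all were below 0 and 0 were called. For endothelial markers (19 of 23 genes) it was 165.7 to 199.5 and 139.6 to 216.1 CPM, for stellate cells (13 of 21) 110.8 to 126.8 and 75.9 to 122.3 CPM, for cholangiocytes (10 of 16) 239.4 to 291.4 and 256.6 to 317.0 CPM and for lymphocytes (2 of 26) 27.6 to 36.2 and 26.6 to 33.4 CPM. The ranges of these other cell types overlap between the ages. Their promoters had median log2 changes of −0.31 for endothelial cells (14 of 19 below 0), −0.26 for stellate cells (11 of 13), −0.17 for lymphocytes (2 of 2) and 0.026 for cholangiocytes (5 of 10), with 0 called by edgeR. The summed promoter levels of the hepatocyte lists were higher in every aged library, with 5590.01 to 6128 CPM in young and 6589.7 to 7378 CPM in aged libraries for plasma proteins (102 of 106 genes), 7984 to 8608 and 9506 to 10471 CPM for metabolic enzymes (144 of 145) and 6199 to 6632 and 7278 to 8163 CPM for liver transcription factors (86 of 86). Promoter strength differed between these lists. By median level, the macrophage, stellate and endothelial promoters fell in deciles 3, 4 and 5. All promoter regions there had medians of −0.38, −0.31 and −0.26. Lymphocyte and cholangiocyte promoters fell in decile 7 (−0.074 over all promoters) and the hepatocyte lists in decile 10 (0.28). The macrophage promoters lay furthest below their decile. The part that a shift in cell types has in these levels or in the changes at gene ends was not tested.

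Among called regions whose ages did not overlap, the largest decreases were at the ends of Mup15 and Mup17, which encode major urinary proteins, the pheromone carriers that male liver secretes. Mup15 had 4.10, 2.45 and 3.26 log2 CPM in young and 0.96, 0.23, 0.17 and −0.51 in aged replicates, a log2 change of −3.21 (adjusted p = 0.0056), and Mup17 had a change of −3.04 (adjusted p = 0.0068), which was −2.45 without young replicate 1. Each region has near-identical copies at 13 other places, so the counts cannot be given to a single gene. The predicted genes 4930572O03Rik and Gm21083 on chromosome 5, with changes of −1.92 and −1.86, have copies at 6 places and 1 place. Both of their calls were lost with abundance offsets. Of the 8 Mup gene-end regions 3 were called lower, and the 2 without a copy, at Mup3 and Mup20, had values of −0.065 and −0.033. Of all gene-end regions, 22 had such a copy, and 9 of these were called lower, with a median of −0.67. In the 975 without a copy the median was −0.21, with 77 called lower and 14 higher. Without the copies, the change in level against like distal regions was −0.19.

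The largest decreases without a copy were at 4 genes with varied roles. Tent5a, which encodes a poly(A) polymerase, had 2.96, 3.21 and 2.83 log2 CPM across its end in young and 0.90, 1.11, 1.89 and 1.16 in aged replicates, a log2 change of −1.86 (standard error 0.28, adjusted p = 0.0076). The samples did not overlap, and its promoter was also called lower, with −0.84. Behind Gpcpd1, a phosphodiesterase of choline metabolism, the level was 4.11, 5.41 and 4.03 in young and 1.82, 3.46, 3.39 and 2.44 in aged liver, a change of −1.90 (adjusted p = 0.018), and its promoter had 0.13. Young replicate 2 stood above the other young samples, and without it the change at the end was −1.25 and did not pass (adjusted p = 0.093). Isl2, a LIM homeobox factor best known from motor neurons, had −1.87 behind its end and −2.10 at its promoter (both called lower), and Hap1, the huntingtin-associated protein, had −1.81 behind its end. The Isl2 and Hap1 regions were weak, with 1 to 13 counts in each aged library, and both calls at the end were lost with abundance offsets. The Isl2 call was also lost in 4 and the Hap1 call in 6 of the 7 fits that left out 1 library. Without aged replicate 4 the Hap1 value was −2.62.

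The largest increases without overlap were smaller in size. Cldn18, a tight junction claudin, had 2.89, 3.20 and 3.47 log2 CPM across its end in young and 4.17, 4.23, 4.29 and 4.44 in aged replicates, a log2 change of 1.11 (standard error 0.18, adjusted p = 0.0091). G6pc2, which encodes a glucose-6-phosphatase subunit best known from pancreatic islets, had 4.14, 4.27 and 4.36 in young and 5.08, 4.78, 4.95 and 5.08 in aged liver, a change of 0.73 (adjusted p = 0.013). In both, every aged sample was above every young one.

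Acadsb, an acyl-CoA dehydrogenase of isoleucine breakdown, had a change of 1.11 in a region that lies in an intron of the facing gene Fgfr2. Gas1, a membrane protein of growth arrest, had 0.74, and Slc11a2, the iron transporter DMT1, had 0.61, which did not pass with abundance offsets, total counts or the filter of 10 counts. The region at 4933427I04Rik, with 1.25, has near-identical copies at 49 other places. At Acadsb, Gas1, Hhex, Slc11a2 and Serpina3k, 5 genes named here with a higher end and a promoter region, the promoter passed at Serpina3k alone.

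Because the labels do not say which aged samples share a liver, each of the 6 pairs of aged samples was summed in turn. Of the 23 called regions named by size of change or from a gene list, 10 kept the call under all 6 sums. They were those at Mup15, Mup17, Tent5a, Gpcpd1, Nr1d1, Creb3l3, Serpina1a, Cyp2d10, Cldn18 and G6pc2. The other 13 lost it under at least 1 sum. Of the 23, only the calls at Mup15, Mup17 and Tent5a also held without each of the 7 libraries in turn. The called ends of Fgf1 and Mef2b, named by their pattern, were not checked in these ways.

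**Figure D5:**
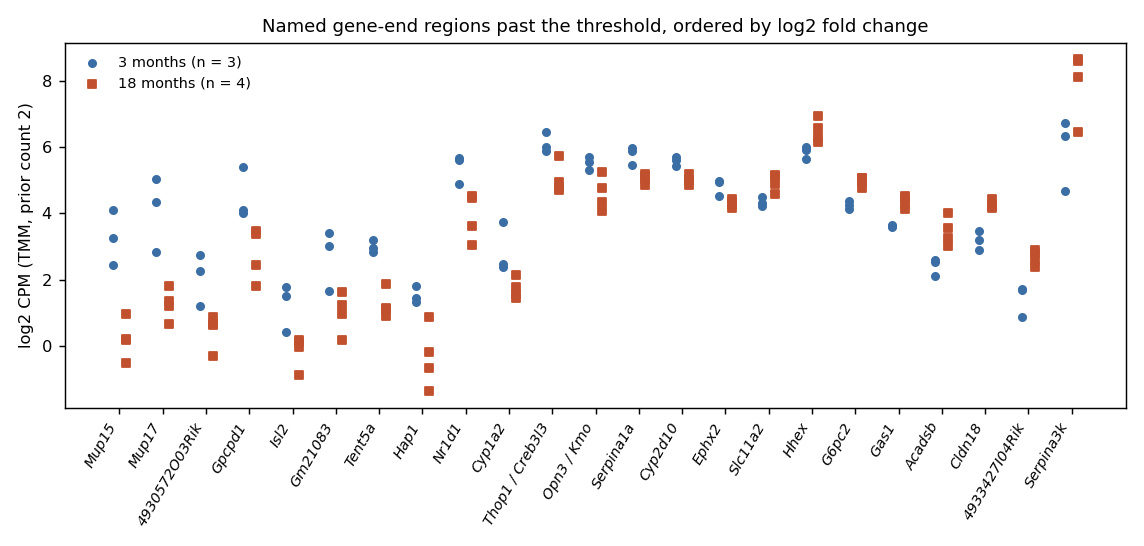
Log2 CPM of each library (y axis, young as circles, aged as squares) for the gene-end regions with an adjusted p under 0.05 named by size of change or from a gene list, ordered by log2 fold change from left to right. The ages do not overlap except at Serpina3k, at the far right.

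The strongest gene-end regions, by mean log2 CPM, lay at Errfi1, Pck1, Tat, Ahsg, Lars2, Fgb, Slc25a47 and Sdc4, and none of the 8 passed the test. Errfi1, a feedback inhibitor of the EGF receptor, had 8.70, 9.21 and 9.32 log2 CPM in young and 9.15, 8.84, 9.57 and 9.27 in aged replicates, a log2 fold change of 0.13. Pck1, the rate-limiting enzyme of gluconeogenesis, had 7.81, 8.46 and 8.63 in young and 7.01, 7.47, 8.70 and 8.89 in aged liver, a change of −0.12. The aged samples spread on both sides of the young ones at Pck1, as they did at Tat (tyrosine aminotransferase), with 6.75 to 8.39 in aged and 7.72 to 8.22 in young liver. Per length, Lars2, which encodes the mitochondrial leucyl-tRNA synthetase, came first of all gene-end regions with 458.3 CPM per kb, followed among the named regions by Errfi1 (71.9) and Pck1 (65.1). The Lars2 region is short, at 441 bp. Sequence like it outside the assembled chromosomes was not looked for, so reads that belong elsewhere may add to its counts.

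Short motifs were searched on both strands in the 300 bp around the centre of each region. The core of the CTCF motif was found in 7.22% of gene-end regions, 4.51% of other distal regions and 2.98% of promoter regions. The liver motifs were somewhat less common at gene ends than at other distal regions, with 12.3% and 13.9% for HNF4A (CAAAGNNCA), 16.9% and 18.2% for FOXA (TNTTTAC), 12.9% and 17.5% for C/EBP (TTGCNNAA) and 7.92% and 11% for AP-1 (TGANTCA). The polyadenylation hexamer was found in 27.0% and 25.7%. Of the 86 gene-end regions called lower, 8 (9.30%) held the CTCF core, 4 (4.65%) the HNF4A, 13 (15.1%) the FOXA, 6 (6.98%) the C/EBP and 4 (4.65%) the AP-1 letters, and 30 (34.9%) held the polyadenylation hexamer. The clock elements were rare or even, with 5.62% and 5.35% for the E-box (CACGTG), 2.21% and 3.65% for the D-box (TTANGTAA) and 0.10% and 0.45% for the ROR and REV-ERB element. Of the regions called lower, 4 held the E-box, 2 the D-box and 0 the ROR and REV-ERB element. These are matches of letters, several of which can overlap, and binding was not measured.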

How the data were processed

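The authors deposited raw counts, the reads of each library in consensus regions found as peaks in 2 or more libraries, without normalization. The authors trimmed reads with cutadapt 1.13, aligned them to GRCm38 with Bowtie2 2.4.1, kept well-mapped reads without PCR duplicates or mitochondrial reads, called peaks per library with MACS2 2.2.7 and counted with featureCounts. Counts carry no molecular identifiers. All 7 columns were matched to samples by description, and 0 were left over.

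Regions were annotated with GENCODE M21, and sequence came from the RefSeq copy of GRCm38. All 55680 regions were fitted with edgeR 4.0.16 in R 4.3.3 (TMM, quasi-likelihood test, a term for age, Benjamini-Hochberg adjustment, threshold 0.05), and a prior count of 2 was used for log2 CPM. On simulated data with 200 changed regions, at a log2 change of 1.5, the fit recovered 97% with 3% false among 200 calls. The changed regions were drawn from the better covered ones. The simulated spread followed the trend with level, without added spread of single regions. Recovery and false calls for weak gene-end regions or smaller changes were therefore not measured. No library repeated another of its age (chi-square over degrees of freedom from 2.40 to 6.07). A gene's promoter was its strongest region within 200 bp of a TSS. Near-identical copies (80% of a region at 95% identity or more) were found with minimap2 2.31. The search covered the assembled chromosomes, without the mitochondrial genome or unplaced sequence. Alternatives included DESeq2 1.42.0, limma 3.58.1 (voom) and loess offsets with a span of 0.3.

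The members and gene lists were chosen with earlier results of these data known. Named regions are the 8 largest increases and 8 largest decreases among calls without overlap, the 8 strongest, and from each list up to 4 called regions and the 2 strongest, of which 1 region is not reported here. Figures were drawn with matplotlib 3.10.9.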

Additional observations from a re-analysis of the deposited data

Results flagged for a closer look

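Of the 44 values with 4 aged samples that were examined, 1 had a sample apart from the rest, where chance gives about 1 in 20. Behind Bhlhe40, a clock repressor, aged replicate 1 had 4.36 log2 CPM and the other aged samples 4.72 to 4.76, against 4.63 to 4.98 in young liver. Divided by the range of the aged samples, its gap to the nearest of them was above Dixon's 95% critical value. The region did not pass the test between the ages, and no cause was tested.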

How the results depend on the processing

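The median log2 fold change at gene ends, the level against like distal regions and the level against the promoter of the same gene were below 0 under every alternative run for each. The counts were 86 lower and 15 higher as reported. Higher calls numbered 34 with DESeq2, 28 with limma voom and 34 with GC offsets, which gave a median of −0.17. Scaling to total counts in regions gave 132 lower and 9 higher with a median of −0.34. It moved the median of all regions to −0.15, and gene ends lay 0.18 below all regions there as in the fit reported. Abundance offsets gave 38 lower and 6 higher, a median of −0.16 and a change against the promoter of −0.15. At least 10 counts in every sample gave 55 lower and 9 higher, and a threshold of 0.01 gave 3 lower and 1 higher. Leaving out 1 library gave 8 to 104 lower and 0 to 25 higher, medians from −0.24 to −0.20, changes of −0.21 to −0.19 against like regions and of −0.41 to −0.36 against promoters. Summing aged 1 and 3 gave 38 lower and 4 higher, aged 2 and 3 gave 51 lower, and aged 2 and 4 gave 27 higher. With total counts, 13.2% of gene ends and 5.26% of all regions were called lower, and with abundance offsets 3.81% and 1.02%. The shares were 6.28% and 1.69% with the filter of 10 counts, and 3.81% and 1.24% with aged 1 and 3 summed. A window of 200 bp, which holds fewer regions, gave 54 lower. The ends of all transcripts gave 23 higher and −0.17 against like regions, and exon-overlapping regions, an alternative added after the data were seen, gave −0.13. Same-numbered samples did not deviate together (correlations −0.12, 0.056 and 0.030), and the replicate block, which gave 27 higher and 119 lower, is not a pairing. Of the 101 called gene-end regions, 99 were also called by DESeq2, 96 by voom and 39 with abundance offsets. Except where a setting tests fewer regions or samples, the cause was not tested. Depth limits the weak regions most, as the median gene-end count in aged replicate 3 was 37.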
